A study of Homo sapiens with 8 samples.

Results

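TERT encodes the catalytic subunit of telomerase, the reverse transcriptase that adds telomere repeats to chromosome ends. The gene lies on the minus strand near the tip of the short arm of chromosome 5. Its CpGs were taken from an hg19 window at chromosome 5, 1250000 to 1300000, which held 702 of the 3209182 CpGs listed in any library. They were chosen by position alone and fell into 4 regions. Upstream of the start, from 1295163 to 1300000, there were 81 CpGs. The first part of the gene, from 1293000 to 1295162, held 61, and the rest of the body, from 1253287 to 1292999, held 535. Downstream of the gene, from 1250000 to 1253286, there were 25. The start was taken at 1295162.

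The DNA came from the established embryonic stem cell line HUES64, of human origin, whose genotype the labels give as DNMT1 knockout. All 8 samples share this genotype and differ in the day of DNMT1* withdrawal, from day 0 to day 7. DNMT1* is not explained in the labels; from the published work on this line it is known as an exogenous DNMT1 that can be switched off. Each day is 1 library of reduced representation bisulfite sequencing (RRBS), a method that reads mainly CpG-rich restriction fragments, and the labels do not say whether the line is a single clone.

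DNMT1 copies CpG methylation onto the new DNA strand after replication, so that without it a methylated CpG is diluted as cells divide. TERT is transcribed in pluripotent stem cells, in the germ line and in most cancers, and is silent in most somatic cells. Its promoter has no TATA box, is rich in CpGs and holds binding sites for SP1 (GC boxes) and for MYC (E-boxes). Promoters of this kind are commonly free of methylation at the start, while the bodies of genes are commonly methylated. In many cancers that express TERT, a stretch upstream of the core promoter is methylated although the gene is active.

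The RefSeq promoter sequence of TERT, from 250 bases before to 50 after the RefSeq start, is shown because it carries the unmethylated CpGs described next. It is read on the minus strand, 5′ to 3′, at chr5:1295019-1295318 of GRCh38.p14, and capitals mark the CpGs that the files list.

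TERT promoter: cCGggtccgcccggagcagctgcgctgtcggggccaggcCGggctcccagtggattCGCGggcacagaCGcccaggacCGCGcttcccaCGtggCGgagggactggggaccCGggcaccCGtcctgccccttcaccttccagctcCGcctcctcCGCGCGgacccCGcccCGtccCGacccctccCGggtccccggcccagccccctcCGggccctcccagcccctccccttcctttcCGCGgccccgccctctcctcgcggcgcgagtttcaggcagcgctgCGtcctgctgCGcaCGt

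Since the files use hg19, the sequence was placed by the spacing of its CpGs alone. At a single offset all 25 listed CpGs of the interval fell on CpGs of the sequence, and no other offset matched more than 10. The RefSeq start then lies 21 bases upstream of the start used here. The 300 bases hold 36 CpGs, against a median of 14 over the 35116 RefSeq promoters of the same length, of which 12.7% hold as many or more. The GC box GGGCGG, searched on both strands, was found 3 times, and 45% of all promoters hold it at least once. The E-box CACGTG, which reads the same on both strands, was found 1 time, and 7.26% of all promoters hold it. The 2 motifs did not overlap, and each match holds 1 CpG of the sequence. The GC boxes begin at bases 7, 165 and 246. Of their CpGs only that of the match at base 165 was listed, so the others were not measured. The CpG of the E-box was listed. Summed over all 8 libraries, 25 of 6375 reads at the 25 listed CpGs were methylated (0.392%, Wilson 95% interval 0.266 to 0.578%).

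Depth in the window followed that of the libraries. The window had 25932 to 50676 read calls in the deep libraries (days 0, 1, 2, 6 and 7). In the shallow ones (days 3, 4 and 5) there were 3491 to 3818, a median of 5 reads per CpG. Of the 702 CpGs, 591 were listed in every library and were used for levels by day, with reads pooled over the CpGs of a region. Only 18 had 10 or more reads in every library, while 625 had them in each of the 5 deep libraries. The intervals given (Wilson), and the upper limits for shares of 0 (3 reads of the total), cover counting error only, since reads were not tagged by molecule. A read that spans several CpGs is counted at each of them, so both are narrower than the number of separate reads allows. There are no replicates at any day. Trends over days rest on a single course, with 1 library per day, and their p values do not cover variation between courses.

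The core of the promoter was free of methylation before withdrawal and stayed so. In the window from 250 bp before to 250 bp after the start, 37 CpGs were listed in all libraries. On days 0, 1 and 2, 9 of 2086, 3 of 969 and 10 of 2035 reads were methylated, or 0.431%, 0.310% and 0.491%. On days 3, 4 and 5 there were 0 methylated reads of 208, 205 and 216. That would allow a share of up to 1.44%, 1.46% and 1.39% if each were a separate read. Neighbouring CpGs share reads, so the true limits are wider. On days 6 and 7, 1 of 1629 and 4 of 1525 reads were methylated, or 0.0614% and 0.262%. Each library was thus below 0.5% or without a methylated read. The fitted slope was -0.046 ± 0.028 percentage points a day (SE over n = 8 libraries), with an exact two-sided permutation p of 0.15 over all 40320 orders of the days. Adjusted by Benjamini-Hochberg for the 8 trends computed, it was 0.18. The rest of the autosomes gave 0.141 to 0.273% per library at CpGs below 2% on days 0 and 1. That set was filtered on its early levels, while the TERT window was taken by position, so the shares are not like for like.

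Of these 37 CpGs, 29 had no methylated read in any library, over 6558 reads. The 3 with the most reads in their thinnest library lay 85, 95 and 159 bp upstream of the start. Both CpGs at 85 and 95 bp had 0 methylated reads on every day, with 48 and 45 reads on day 7, and 71 and 68 on day 0. The CpG at 159 bp had 1 of 124 on day 0, 2 of 136 on day 2 and 0 of 93 on day 7. A single CpG 62 bp upstream of the start, at position 1295224, stood apart and was picked out after its values were seen. It had 5 of 52, 2 of 24, 7 of 61, 0 of 3, 0 of 5, 0 of 3, 1 of 41 and 3 of 32 methylated reads on days 0 to 7. These are 18 of the 27 methylated reads of the whole window. The files give calls alone, and whether the reads called methylated at this CpG carry methylation was not tested. Over the other 36 CpGs, 9 of 8652 reads were methylated (0.104%, Wilson 95% interval 0.0547 to 0.198%).

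**Figure D1:**
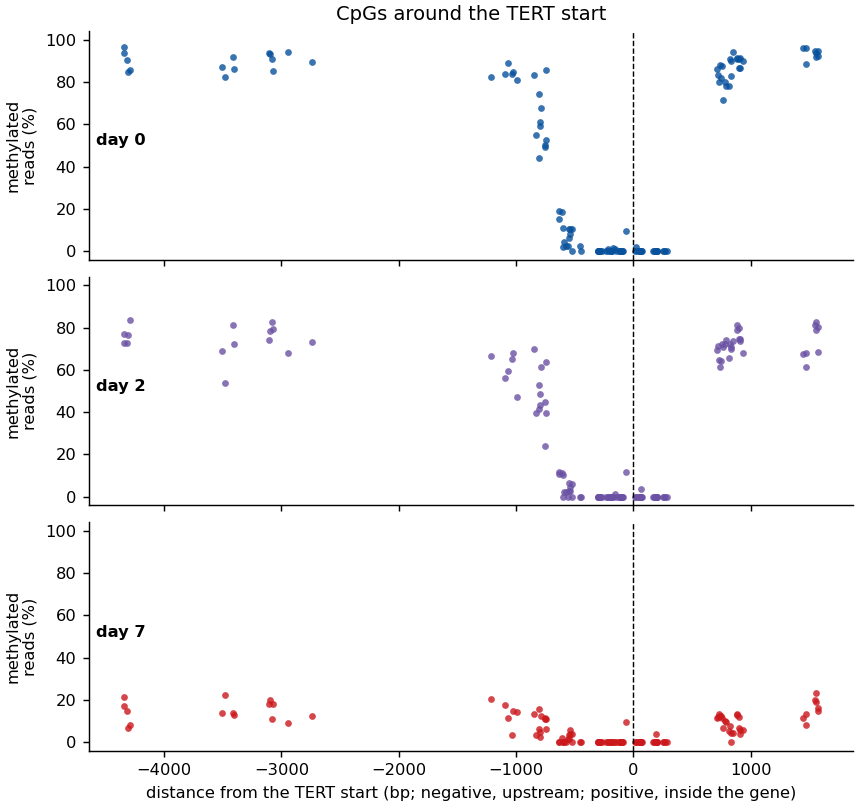
Methylation of single CpGs from 5 kb upstream of the TERT start to 2.2 kb inside the gene on days 0, 2 and 7 (one panel each). Each point is a CpG with 10 or more reads in each of the 5 deep libraries, the x axis is the distance from the start in bp and the y axis the methylated share of its reads in percent. Points near the start lie at or close to 0 on all 3 days, while the flanks lie mostly near 5 to 20% on day 7, against 80 to 90% on day 0.

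The stretch of low methylation around the start was seen further upstream than into the gene, as far as CpGs were listed. Taking neighbours at 20% or less in the pooled reads of days 0 and 1, with at least 10 such reads, it ran from 1294873 to 1295800, a length of 928 bp from 289 bp inside the gene to 637 bp upstream. It held 68 such CpGs. Of these, 47 had no methylated read on days 0 and 1, and the highest stood at 17.3%. Inside the gene the next CpG, 715 bp from the start, stood at 87.0%. No listed CpG lay in the 426 bp between, so the course of that edge was not measured. It may lie nearer to the start than the upstream edge or further from it. Upstream the rise could be followed only in part. The next CpG there, 742 bp from the start, stood at 50%, and the 105 bp before it held no listed CpG. Counting CpGs listed in all libraries, the 16 between 500 and 750 bp upstream averaged 15.4% of reads on days 0 and 1. The 8 between 750 and 1000 bp averaged 58.3%, and the 4 between 1000 and 1250 bp 83.0%. The first of these means pools both sides of the gap. Its CpGs inside the stretch stood at 17.3% or less, and those beyond, at 1295904 and 1295909, at 50% and 86.25%. How steep the rise is within the gap was not measured. Of the 13 CpGs listed between 250 and 500 bp upstream, the 8 in all libraries had no methylated read of 903, and the other 5 had 3 of 613. The limits of the stretch and of its flanks were read from days 0 and 1, so their difference on those days is a description.

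The levels at the upstream edge of the stretch and just beyond it were also lower at the end of the course. On days 0, 1, 2 and 7 the 250-bp window from 750 to 1000 bp upstream had 61%, 52.9%, 47.5% and 9.05% methylated reads, the last on 431 reads. The window from 500 to 750 bp, most of whose CpGs belong to the stretch, had 16.8%, 12.1%, 11% and 2.79% on the same days. On day 7 the 30 upstream CpGs beyond the stretch stood at 12% (Wilson 95% interval 10.5 to 13.6%), the 21 beyond it inside the gene at 9.63% (8.05 to 11.5%), and the 62 CpGs inside the stretch at 0.734% (0.470 to 1.14%). On day 0 the same 3 groups had stood at 79.96%, 88.4% and 2.97%. The upstream flank lay 11.2 points above the stretch on day 7, against 77 on day 0, and the flank inside the gene 8.9 points, against 85.5.

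Over the whole upstream region, 71 CpGs gave 36.2%, 34.1%, 27.6%, 14.5%, 5.73%, 6.22%, 6.21% and 5.93% methylated reads on days 0 to 7. This pooled level fell to day 4 and was flat from there, within the counting error of the shallow days. The fitted slope was -5.05 ± 0.87 percentage points a day (SE over n = 8 libraries; exact permutation p = 0.00084, adjusted 0.0034), and -4.75 ± 0.35 in the 5 deep libraries (exact permutation p = 0.0083). These means mix 41 CpGs at 20% or less on days 0 and 1 with 20 at 80% or more and 10 between. Among the 3 CpGs named by depth, those 159 and 523 bp upstream had at most 2 methylated reads in any library. The third, 1070 bp upstream, had 98 of 110 methylated reads on day 0, 64 of 108 on day 2, 4 of 71 on day 6, then 14 of 120 in the last library.

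The first part of the gene gave a similar mixture. Its 42 CpGs had 49.9%, 43.0%, 44.5%, 33.3%, 17.3%, 0.662%, 9.73% and 6.25% methylated reads on days 0 to 7. Day 5, with 1 methylated read of 151, lay below days 6 and 7 beyond the counting error, and the library of day 5 is one of the 3 shallow ones. The fitted slope was -7.38 ± 1.17 percentage points a day (SE over n = 8 libraries; exact permutation p = 0.0016, adjusted 0.0034), -6.77 ± 0.75 without day 5, and -7.30 ± 0.72 in the 5 deep libraries (exact permutation p = 0.017). The 21 CpGs at 20% or less together had at most 1 methylated read in any library. The 19 CpGs at 80% or more had 9.65% methylated reads on day 7, against 89.6% on day 0, and so kept 10.8%. Of the 3 CpGs named by depth, that 189 bp inside the gene had 0 methylated reads of 83, 76 and 47 on days 0, 2 and 7, and 1 of 42 on day 1. The next, 899 bp inside, had 98 of 113 methylated reads on day 0, 84 of 105 on day 2 and 14 of 117 on day 7. The third, 1573 bp inside, had 37 of 40, 28 of 41 and 4 of 27 on these days.

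**Figure D2:**
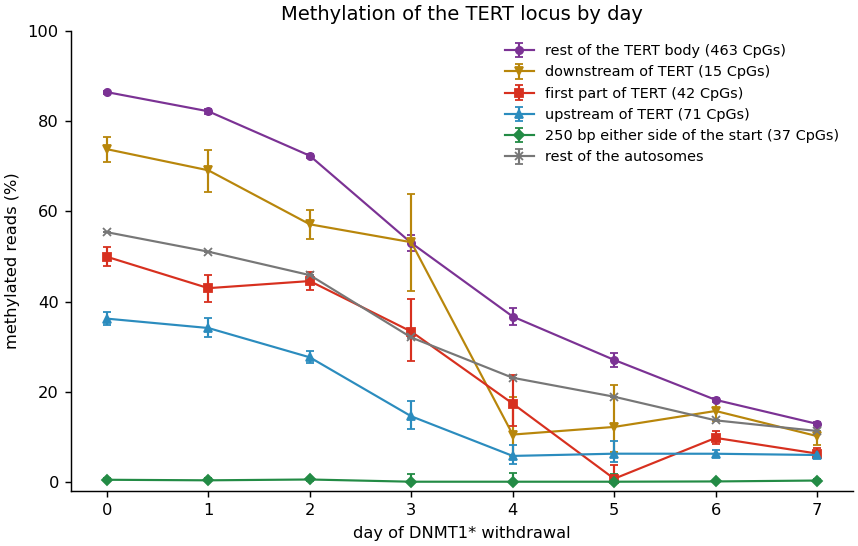
Share of methylated reads in percent (y axis) on each day of DNMT1* withdrawal (x axis) in the 4 regions of the TERT window, in the 250 bp either side of the start and in the rest of the autosomes. Each point is 1 library, error bars are Wilson 95% intervals of the pooled reads, and numbers of CpGs are in brackets. The body is the highest of the 6 on days 0 to 2 and 4 to 7, with 12.8% on day 7, against 86.5% on day 0, while the window at the start stays below 0.5%.

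The rest of the body was almost evenly methylated before withdrawal and lost most of it. Its CpGs listed in all libraries, 463 in number, gave 86.5%, 82.2%, 72.4%, 53.0%, 36.7%, 27.0%, 18.2% and 12.8% methylated reads on days 0 to 7, on 2621 to 40306 reads per library. The level was lower on each day than on the one before. Relative to the preceding day, 95.1% was left on day 1, 88% on day 2, and 67.2 to 73.7% on days 3 to 7. The fitted slope was -11.8 ± 0.8 percentage points a day (SE over n = 8 libraries), with an exact permutation p of 5.0e-05, the smallest that 8 days can give, and 0.00040 after adjustment. With the 5 deep libraries alone the slope was -11.4 ± 0.8 (exact permutation p = 0.0083, the smallest that 5 days can give). The day 7 library had 12.8% (Wilson 95% interval 12.5 to 13.2%), against 86.5% (86.1 to 86.8%) in the day 0 library, a difference of -73.7 points with no replicate check.

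Single CpGs of the body fell with the mean and kept a spread of levels. Among 478 body CpGs with 10 or more reads in each deep library, the median level was 87.7% on day 0 (quartiles 83.7 and 91.1%). It was 73.2% on day 2 (67.1 and 78.4%) and 12.3% on day 7 (9.24 and 16.9%). Of the 478, 414 stood at 80% or more on day 0, 93 on day 2 and 0 on days 6 and 7. At 20% or less there were 409 CpGs on day 7 and 1 on day 0. None of the 463 body CpGs listed in all libraries was without a methylated read. The 3 CpGs named by depth lay 5.31, 12.1 and 20.2 kb inside the gene. The first had 131 of 156 methylated reads on day 0, 144 of 214 on day 2 and 31 of 193 on day 7. The second had 178 of 193, 164 of 204 and 34 of 182 on these days, and the third 231 of 254, 175 of 257 and 26 of 171.

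The order of body CpGs early and late was compared as a description. Among the 401 body CpGs at 80% or more on days 0 and 1, levels on days 6 and 7 pooled ran from 5.26 to 43.6%, with a median of 15.7%. The share of the day 0 level kept on day 2 and the share kept on day 7 correlated at Pearson r = 0.052 and Spearman rho = 0.056 across these CpGs, and the shares kept on days 6 and 7 at 0.47 and 0.40. The levels of day 0 and day 7 themselves correlated at r = 0.33 and rho = 0.31. CpGs are not independent replicates, since neighbours share reads, and the 2 shares of each pair are divided by the same day 0 value.

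**Figure D3:**
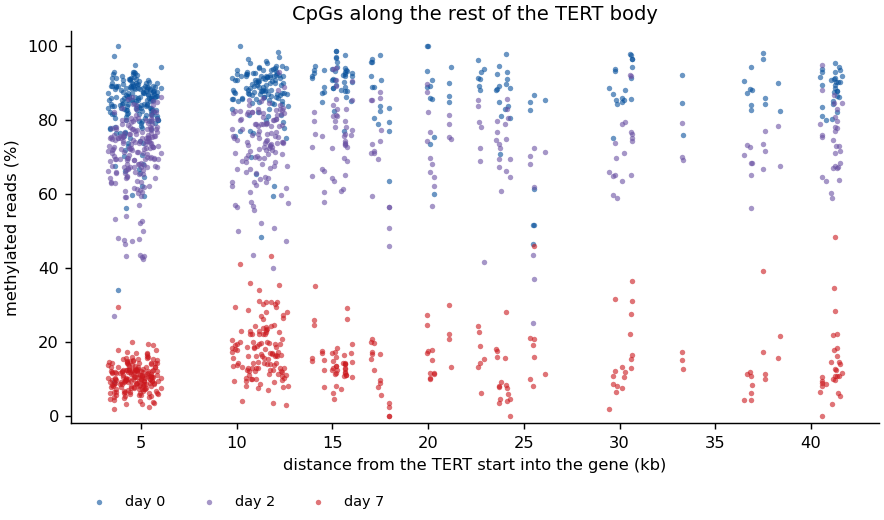
Methylation of single CpGs along the rest of the TERT body on days 0, 2 and 7. Each point is a CpG with 10 or more reads in each of the 5 deep libraries, the x axis is the distance from the start into the gene in kb and the y axis the methylated share of its reads in percent. The dense group up to about 6 kb reaches lower levels on day 7 than the group between 9 and 13 kb, although both start near 80 to 90%.

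Whether the body followed the general loss was asked with CpGs at 80% or more in the pooled reads of days 0 and 1. The 386 such body CpGs stood at 88.3% on day 0 and the 999451 of the rest of the autosomes at 88.8%. On day 2 the body kept 83.7% of its day 0 level and the rest 83.7%. The class was set on days 0 and 1, which holds the ratio near 1 on those days. The body kept 31.9%, 21.6% and 15.3% on days 5 to 7, against 35.1%, 24.7% and 20.6% in the rest. The ratio of the 2 levels was between 0.995 and 1.04 on days 0 to 4, and was 0.904, 0.870 and 0.737 on days 5, 6 and 7. Taken whole, the body therefore ran with the genome until day 4 and below it on each of the last 3 days. Its parts differed. Divided by the share kept in the rest of the autosomes, the share kept in its first 5 kb was 0.911, 0.804, 0.747 and 0.627 on days 4 to 7. In the body beyond them it was 1.094, 0.997, 1.002 and 0.880. That part was thus near the genome on days 5 and 6 and below it on day 7. Days 4 and 5 rest on shallow libraries.

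As a single rate, the body declined by -0.284 ± 0.022 per day on the natural log scale, a halving time of 2.44 days, and the rest by -0.247 ± 0.016, a halving time of 2.81 days. The difference was -0.037 ± 0.012 per day (SE, n = 8 libraries; exact permutation p = 0.015, adjusted 0.025). Over days 2 to 7 alone, without both days that set the class, it was -0.061 ± 0.016 (SE, n = 6 libraries; exact permutation p = 0.022, adjusted 0.036). With the 5 deep libraries alone the value was -0.038 ± 0.010 (exact permutation p = 0.033, adjusted 0.044). Against chromosome 5 alone it was -0.038 (exact permutation p = 0.011). The difference rests largely on day 7: without it the value was -0.020, with an adjusted exact permutation p of 0.16. It also missed the threshold without day 1 (-0.039), day 2 (-0.037) or day 6 (-0.038), with adjusted exact permutation p values of 0.055, 0.062 and 0.062, where the value itself was not smaller.

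The size of this difference was then set beside other places. When the autosomes were cut into windows of 50 kb, 1163 others held at least 100 highly methylated CpGs. The TERT window, with 431, kept 15.2% of its day 0 level on day 7, and 6.62% of the others kept less. Their median was 20.5%, with quartiles of 17.9 and 23.7%. On day 6 the TERT window kept 21.5%, against a median of 25.1%, and 20.6% of the others kept less. On day 2 it kept 83.5%, and 47.5% of the others kept less. Among the 43 others with at least 300 such CpGs, 4.65% kept less on day 7, 25.6% on day 6 and 14% on day 2. TERT thus lay lower in the range on day 7 than on day 6, within it on both, and its place on day 2 moved with the number of CpGs asked for.

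**Figure D4:**
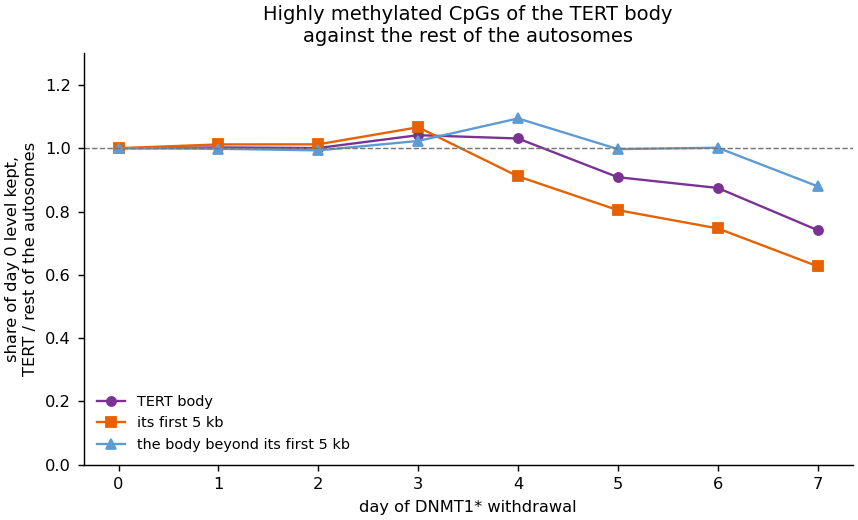
Share of the day 0 level kept by highly methylated CpGs of the TERT body, divided by the share kept in the rest of the autosomes (y axis), on each day of DNMT1* withdrawal (x axis). A value of 1 (dashed line) means the same share kept. The whole body, its first 5 kb and the body beyond them are shown, each point is 1 library, and on day 7 they stand at 0.741, 0.627 and 0.880.

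The lower late level was uneven along the body. In windows of 5 kb, counted from 2.16 kb inside the gene, the first held 187 of the 463 body CpGs and 52.0% of the body reads, with its CpGs between 2.24 and 6.04 kb from the start. Its 145 highly methylated CpGs had 86.7%, 73.4%, 16% and 11.2% methylated reads on days 0, 2, 6 and 7, and so kept 12.9%. The second window, with 86, had 89.8%, 74.9%, 24.8% and 19.0% on the same days, and kept 21.1%. The other 6 windows kept 11.8 to 17.5% on day 7. The lowest was the seventh, with 15 listed CpGs and 710 reads on day 7 over its 10 highly methylated ones. On day 2 the 8 windows were close together, at 80.9 to 84.7%. Of the 8, 7 kept less than the rest of the autosomes on day 7, the second being the exception. Without its first window the body kept 18.1% on day 7 and 24.8% on day 6, against 20.6% and 24.7% in the rest of the autosomes. The windows were compared after their values were seen, so no test is given for them.

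The first of these windows is also where CpGs are densest. The seventh, which kept the least on day 7, has the fewest listed CpGs. In the rest of the autosomes, the 47881 highly methylated CpGs of 1-kb tiles with 40 or more listed CpGs kept 18.5% on day 7. The 288856 in tiles with 4 or fewer kept 20.7%. On day 2 these sets kept 87.05% and 82.0%, and the first TERT window 84.7%. That window was thus near all other autosomal CpGs on day 2 but below those of dense tiles. Highly methylated tiles with 50 or more CpGs numbered 3 in TERT, all in the first window, and had 11.8 to 13.6% on days 6 and 7 pooled. The 169 others had a median of 16.3%, with quartiles of 14 and 19.3%, and 17.8% of them lay below the highest of the 3. On days 0 and 1 the TERT tiles had a median of 83.2% and the others 86.5%. Neighbours within 50 bp showed no ordered relation inside the body on day 7. CpGs with 5 to 10 kept 14.6%, those with 2 to 4 kept 17.3% and those with 0 or 1 kept 15.2%. On day 2 the same groups kept 84.2%, 84.0% and 79.9%, the last over 40 CpGs.

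Highly methylated CpGs upstream could be compared with the body only coarsely, since 20 of them were listed in all libraries. On days 0, 2, 6 and 7 they stood at 88.5%, 71.4%, 18.8% and 13.8%. On the 5 deep days their level was 0.965 to 1.02 times that of the body. On days 4 and 5 it was 0.588 and 0.574 times that of the body, on 119 and 105 reads. The difference in rate from the body was -0.024 ± 0.041 per day (SE, n = 8 libraries; exact permutation p = 0.57), and 0.0028 ± 0.0040 in the 5 deep libraries (exact permutation p = 0.52). Against the rest of the autosomes the upstream CpGs gave -0.061 ± 0.037 per day (exact permutation p = 0.16, adjusted 0.18). Restricted to the 5 deep libraries, the value was -0.035 ± 0.006 and passed (exact permutation p = 0.0083, adjusted 0.017).

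Downstream of the gene, 15 CpGs gave 73.8%, 69.1%, 57.1%, 53.2%, 10.5%, 12.2%, 15.7% and 10.1% methylated reads on days 0 to 7. Days 3, 4 and 5 rest on 79, 86 and 74 reads, so the step between days 3 and 4 and the order of days 4 to 6 are poorly known. The fitted slope was -10.6 ± 1.8 percentage points a day (SE over n = 8 libraries; exact permutation p = 0.0017, adjusted 0.0034), and -9.60 ± 0.44 in the 5 deep libraries (exact permutation p = 0.0083). The deepest CpG there, at 1250275, had 92 of 139 methylated reads on day 0, 63 of 117 on day 2 and 13 of 110 on day 7. The other two named by depth, at 1251253 and 1251474, had 12 of 96 and 6 of 25 on day 7, against 100 of 128 and 29 of 32 on day 0.

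In a test over 1-kb tiles of all autosomes, 30 of the 40 tiles of the window that hold a listed CpG had enough CpGs and reads. All 30 fell over the 8 days and 0 rose, tested by quasi-binomial regression on day with limma's moderation of the dispersions. Of all 203871 autosomal tiles tested, 90.3% fell and 0.135% rose. That share depends on the starting level. Outside the window, each of the 83485 highly methylated tiles fell, and so did 89871 of 89874 intermediate ones. Of the 30482 that started at 20% or less, 10668 fell, and the median of this class on days 0 and 1 was only 0.344%. The window held 25 highly methylated tiles, 4 intermediate ones and 1 that started low. The fall of its highly methylated and intermediate tiles therefore did not set TERT apart from the genome. The 25 highly methylated tiles of the window (80% or more in the first 2 days) had a median fitted change of -76.5 points, and the 83485 others of this class -71.4. On days 6 and 7 pooled, the 25 had a median of 17.1% and the others 19.7%. Of the 25, 19 lay below the median of the others, 12 below their lower quartile of 16.8% and 0 above their upper quartile of 23%.

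The tile that holds the start, from 1295001 to 1296000, had 10.9% methylated reads on day 0, 8.07% on day 2 and 2.09% on day 7, on 2779 to 3423 reads. It fell with a fitted change of -9.79 points (limma-moderated adjusted p = 4.1e-11). Pooled, it had 10.1% on days 0 and 1 and 1.83% on days 6 and 7. Other autosomal tiles with the same start, 10% when rounded down, ended alike. On days 6 and 7, also rounded down, 18 stood at 0%, 129 at 1%, 132 at 2%, 55 at 3% and the highest at 9%. The fall of this tile therefore did not set TERT apart either. Besides the start it takes in the intermediate CpGs upstream. Where dispersion grows with depth this test makes too many false calls, so this p may be too small. Among highly methylated tiles the lowest on days 6 and 7 ran from 1258001 to 1259000, inside the body. On days 0, 6 and 7 it had 88.2%, 12.6% and 8.81% methylated reads. The highest, from 1299001 to 1300000, upstream, had 89.7%, 31.6% and 13.3% on these days, on 233 to 247 reads. The Wilson intervals of its last 2 days, 9.53 to 18.3% on day 7 and 26.1 to 37.6% on day 6, do not overlap.

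**Figure D5:**
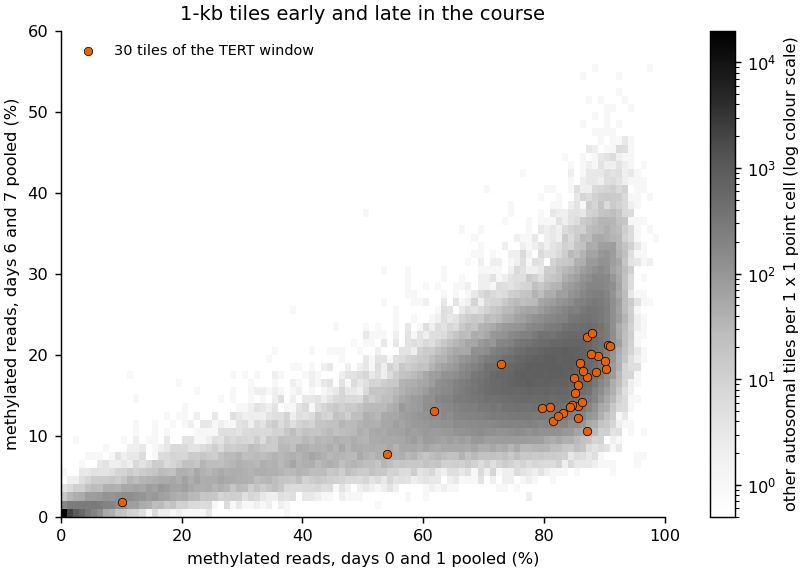
Methylated reads in 1-kb tiles pooled over days 0 and 1 (x axis, percent) and on days 6 and 7 pooled (y axis, percent). Grey cells count the other autosomal tiles on a log colour scale and orange points are the 30 tested tiles of the TERT window. The 25 highly methylated TERT tiles lie between 10.6 and 22.7% on days 6 and 7, within the cloud of the other tiles and mostly in its lower part.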

How the data were processed

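RRBS libraries of 8 days were made by a published method adapted to small cell numbers, per the labels' protocols, and the submitters' processing notes name the build hg19. No source used here names the aligner, the methylation caller or the handling of duplicates. Per CpG, the deposited files give methylated and total reads per CpG, the other unit used here, and the authors' deposited score equals 1000 times their ratio in 100% of lines. CpGs were joined by position, and 34 of the window were listed on different strands in different libraries. Starts count from 1.

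Levels pool reads over CpGs listed in all 8 libraries. Trends are least-squares slopes with exact two-sided permutation p values, adjusted by Benjamini-Hochberg over 8 trends. Values in the 5 deep libraries use CpGs with 10 or more reads in each of them. Tiles needed 3 CpGs and 10 reads in every library, with quasi-binomial regression on day, dispersions moderated by limma's squeezeVar along a trend and kept at 1 or more, and adjusted p below 0.05. On simulated reads this test held its error rate at constant dispersion, but made too many false calls where spread grew with depth. The second case bears on the TERT window, where the unmoderated dispersion was 17.1 to 25.5 in the 3 tiles with the most reads, against a median of 3.02 over the 25 highly methylated ones. Python 3.11.15, SciPy 1.17.1, R 4.3.3 and limma 3.58.1 were used.

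Single CpGs named are the 3 per region with the most reads in their thinnest library, at least 200 bp apart except at the start. Named tiles are that of the start and the highest and lowest highly methylated ones. The region, lists and tests were chosen with earlier results of these data known. Windows of 50 kb, the unmethylated stretch, 5-kb window contrasts and dense tiles were added after seeing the data. Genes other than TERT were not analysed here.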

Additional observations from a re-analysis of the deposited data

How the results depend on the processing

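No paired analysis was possible because there is 1 library per day and the labels give no shared replicate numbers. Of 144 recomputed values, 134 counted as unchanged. For trends this meant the same side of the threshold. For the 14 counts of tiles that fell and the 14 of tiles that rose, it meant a count near the main one, or 0 as before. No trend past the threshold changed sign. The rate of upstream CpGs against the body never passed. It was above 0 with the 5 deep libraries, with 5 reads per CpG and over days 2 to 7 alone. With 5 reads per CpG in every library the slope in the first part of TERT rested on 4 CpGs and was -0.074 points per day (adjusted exact permutation p = 0.14), while that at the start, -0.047 points per day over 14 CpGs, passed (adjusted exact permutation p = 0.012). Upstream it was -2.56 over 23 CpGs. With 10 reads, upstream rested on 6 CpGs at -0.557 points per day and did not pass. Nor did the body against the rest of the genome, at -0.015 per day over 12 CpGs. The first part, the start and downstream had no CpG left. That difference was -0.029 with a class limit of 90% and did not pass. It was -0.039 with like numbers of CpGs per tile in the rest. In alternatives chosen after seeing the data, it was -0.031 with like numbers on both sides and -0.061 over days 2 to 7 alone. With each day left out it was -0.047 to -0.020. Highly methylated upstream CpGs against the rest of the genome passed in the 5 deep libraries, at -0.035. With each day left out, slopes in points per day were -5.99 to -4.69 upstream, -8.30 to -6.77 in the first part, -12.5 to -11.4 in the rest of the body, -12.0 to -10.2 downstream and -0.079 to -0.036 at the start, with each call kept. All tested tiles of the window fell under each alternative except with 500-bp tiles, where 41 of 43 fell. The planned comparison with other telomerase genes was not run, since no annotation of hg19 was used here.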
